A study of Mus musculus with 10 samples.

Results

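The genes described here are 48 mouse genes that encode the DNA replication machinery and its S phase regulators. They were taken as the rows of the deposited expression table whose gene symbol stood on a list of replication and S phase genes. No measured value entered the rule for taking them, but the list was chosen with earlier results of these data known. All 48 were among the 26335 rows of the table, with 1 row each, and all 48 were among the 12306 genes that passed the filter on low values (a mean log2 CPM above 0, where CPM is the read count of a gene relative to the depth of its library). The lowest read number of any of them in any library was 83 and the highest was 23433, so every member was detected in every library.

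Replication of the genome begins when the origin recognition complex, Cdc6 and Cdt1 load the MCM helicase onto DNA in G1. At the entry into S phase, cyclin E with its kinase and the E2F transcription factors start the program, Cdc45 and the GINS complex convert MCM into an active helicase, and polymerases, the PCNA clamp and its loader copy the strands while RPA covers single-stranded DNA. Deoxynucleotides are made at the same time by ribonucleotide reductase, thymidylate synthase and the salvage enzymes, and new histones are placed behind the fork by the CAF-1 complex.

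RNA was sequenced from mSCLC-2405, a cultured mouse line derived from a primary small cell lung cancer. The study compared 5 control libraries with 5 libraries from cells kept with stiripentol, an antiseizure drug that the study examined as an inhibitor of mitochondrial complex I, and the treatment record names 48 h and DMSO for the controls. The dose, 250 μM, is given in the study's text and not in the labels. All groups were the same line grown in the same medium, so the values describe 1 line, and nothing in the labels says whether the 5 libraries of a group came from separate cultures. The p-values below therefore measure the spread between these libraries, which may be technical. In RNA from whole cultures, fewer cells in S phase and less replication RNA per cell cannot be told apart.

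The libraries held 22375625 to 65299372 reads in the control group and 55015760 to 60670901 reads in the stiripentol group. In each group they fell into 2 sets by their correlation over all genes, controls 1 to 3 apart from controls 4 and 5 and stiripentol libraries 3 to 5 apart from stiripentol libraries 1 and 2. The correlation was 0.983 to 0.997 within a set and 0.920 to 0.939 between the sets of a group. The labels name no batch and do not say which control set belongs with which stiripentol set. Controls 1 to 3 had also been normalized apart from the other 7 libraries, since a gene without reads is listed at -4.82 in them and at -4.74 elsewhere. Of 10 neuroendocrine markers that define small cell lung cancer, only Ncam1 and Uchl1 passed the filter, and Neurod1, Chga and Calca had no row. The keratins Krt8, Krt18 and Krt19 and the mesenchymal marker Vim were abundant. The epithelial markers Epcam, Cldn7 and Cdh1, in contrast, had at most 1, 0 and 63 reads in any library. The mesenchymal marker Lum had at most 3. The summed CPM of the neuroendocrine list was 93.5 to 120 in control and 127 to 157 in stiripentol libraries, that of the epithelial list 2380 to 2959 and 1809 to 2319, that of the tuft-like list 1.93 to 7.00 and 25.2 to 59.7, and that of the mesenchymal list 2724 to 3895 and 2504 to 4700. Within the tuft-like list only Avil was higher, at -0.93 to 2.26 log2 CPM in control and 4.65 to 5.89 in stiripentol libraries. Pou2f3, at -0.18 to 2.19 and -3.49 to -1.71, and Trpm5 were lower with stiripentol. Both had few reads, 3 to 260 in a library for Pou2f3 and 0 to 21 for Trpm5, and neither passed the filter. Within the mesenchymal list Col3a1, at 4.73 to 8.36 and 0.49 to 2.00, Col1a2, Pdgfra and Pdgfrb were lower with stiripentol. Col1a1, Dcn, Lum and Vim overlapped between the groups. The leukocyte and endothelial lists summed to at most 3.93 and 1.20 CPM. The part of these lists in the changes below was not tested.

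Many replication genes are known E2F targets, and promoter sequences are shown here for members that differed in level between libraries. Promoters (RefSeq, GRCm38, from 250 bases before to 50 bases after a transcription start) were matched for 40 of the 48 genes. The E2F letters TTTCCCGC, TTTGGCGC, TTTCGCGC and TTTGCCGC were searched on both strands, and these words may overlap each other. At least 1 of them stood in the promoters of 16 of the 40 genes (40.0%), and of 451 of 9144 tested genes with an entry (4.93%). The pentamer CCAAT was found for 24 of the 40 (60.0%) and for 43.8% of tested genes with an entry, and the median GC content was 61.3% in both. Below are 6 stretches from 5 genes, each of E2F letters with 26 bases on either side. Each whole stretch lay before the RefSeq start, inside the searched promoter, and touched no annotated exon. Matches whose stretch did not meet this are not shown. The first E2F letter stood 138 (Cdc6), 153 (Mcm5), 110 and 47 (Mcm6), 138 (Pola1) and 185 (Uhrf1) bases before the start. Sequences are given 5′ to 3′ on the strand of the gene with the E2F letters in capitals.
Cdc6, chr11:98907987-98908046, plus strand: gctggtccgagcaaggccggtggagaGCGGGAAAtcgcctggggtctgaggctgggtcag
Mcm5, chr8:75109330-75109393, plus strand: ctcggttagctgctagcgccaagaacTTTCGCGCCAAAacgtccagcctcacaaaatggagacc
Mcm6, chr1:128359778-128359841, minus strand: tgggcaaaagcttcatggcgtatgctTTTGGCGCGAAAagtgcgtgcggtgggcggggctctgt
Mcm6, chr1:128359719-128359778, minus strand: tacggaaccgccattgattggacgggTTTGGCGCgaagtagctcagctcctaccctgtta
Pola1, chrX:93632260-93632319, minus strand: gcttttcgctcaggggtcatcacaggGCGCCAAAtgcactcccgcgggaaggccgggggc
Uhrf1, chr17:56304102-56304161, plus strand: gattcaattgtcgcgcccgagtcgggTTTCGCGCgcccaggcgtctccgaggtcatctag
The Mcm5 stretch and the distal Mcm6 stretch each hold an overlapping pair of E2F words, which makes 1 run of capitals. The Cdc6 and Uhrf1 stretches lie inside the gene as GENCODE M21 annotates it, between its exons, since GENCODE also places a start farther upstream. A match of letters is a description of the sequence and does not show binding.

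Over all 10 libraries, 2 of the 48 replication genes rose with stiripentol and 0 fell (limma, adjusted p under 0.05). The 2 that rose were Rfc4, a subunit of the clamp loader, and Pold3, an accessory subunit of DNA polymerase delta. Of all genes tested, 27.7% were called in this comparison, 13.6% higher and 14.1% lower, so the called share of the replication genes was below that of all genes. At an unadjusted p under 0.05, 4 members passed, with Mcm2 and Mcm6 beside these, and limma voom on the recovered reads called the same 2 members. The median change of the 48 genes was -0.04 on the log2 scale and that of all genes was -0.06. Changes ran from -0.86 (Tk1, thymidine kinase) to 0.79 (Mcm10, which activates the helicase), with 21 of 48 above 0.

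The members had a larger spread between libraries of one group than all genes had at the median. Their median standard deviation was 0.58 log2 CPM in control and 0.40 in stiripentol libraries, against 0.28 and 0.32 over all genes. The median standard error of the change was 0.32 for the members and 0.22 for all genes. The 5 stiripentol values lay wholly above the 5 control values for 2 members, again Rfc4 and Pold3, and wholly below for 0. Over all genes, 13.0% lay wholly above and 14.3% wholly below. For the other 46 members the groups overlapped.

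**Figure D1:**
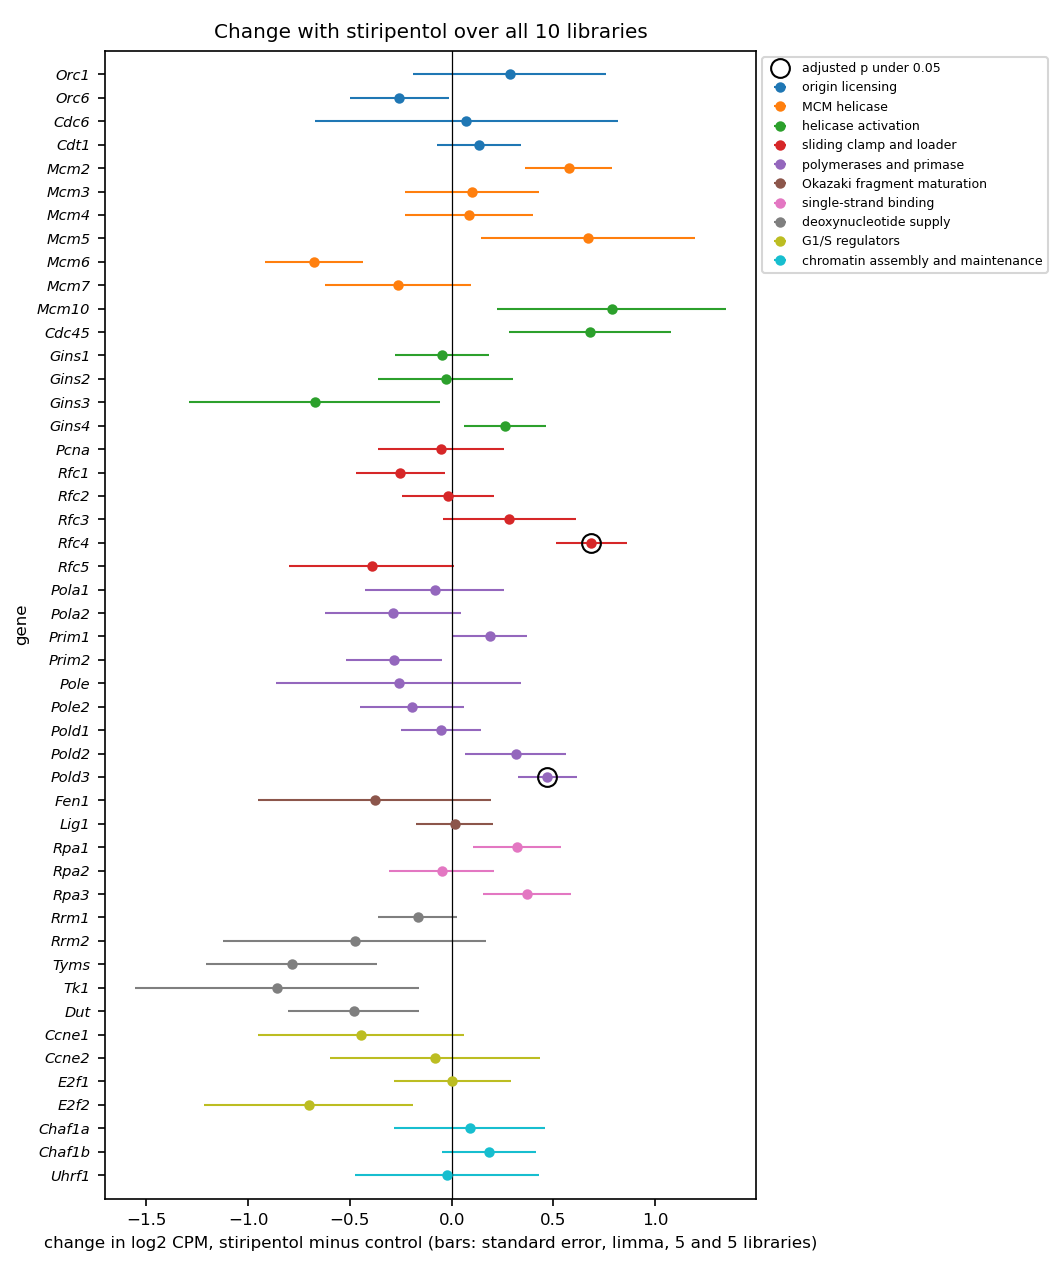
Change in log2 CPM, stiripentol minus control, for each of the 48 replication genes (horizontal axis), with bars for the standard error of limma over 5 and 5 libraries, coloured by role. The 2 circled genes, Rfc4 and Pold3, had an adjusted p under 0.05, and the changes run from -0.86 (Tk1) to 0.79 (Mcm10).

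The larger contrast for these genes was within each group. In the control group, 46 of the 48 had a higher mean in the 3-library set (controls 1 to 3) than in the 2-library set (controls 4 and 5), by a median of 0.95 log2 CPM or 1.93-fold, whereas 48.8% of all genes were higher there and their median difference was -0.02. In the stiripentol group, 44 of 48 were higher in libraries 3 to 5 than in libraries 1 and 2, by a median of 0.72 or 1.65-fold, where 66.1% of all genes were higher and their median difference was 0.32. These differences are given as a description with no test, because the sets were found from all genes of the same libraries. Control values did not overlap between the sets, the 3-library set being higher, for 41 of the 48 members and 34.1% of all genes. The corresponding numbers were 42 members and 59.0% of all genes in the stiripentol group. In the opposite direction there were 1 member in control (Rpa3) and 2 in stiripentol (Pold2 and Pold3), with 36.8% and 27.7% of all genes.

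Joined over both groups, all 6 libraries of the 3-library sets lay above all 4 libraries of the 2-library sets for 33 of the 48 members, which held for 13.8% of all genes, and the opposite held for 0 members and 6.63% of all genes. The summed CPM of the 48 genes was 4790, 4429, 3206, 1975 and 2017 in controls 1 to 5 and 2364, 2285, 3730, 3548 and 3620 in stiripentol libraries 1 to 5. Controls 4 and 5 and stiripentol libraries 1 and 2 were the 4 lowest of the 10. The group means were 3283 ± 1314 and 3109 ± 720 CPM (SD, n = 5 each), so the spread within the groups was larger than the difference between them.

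**Figure D2:**
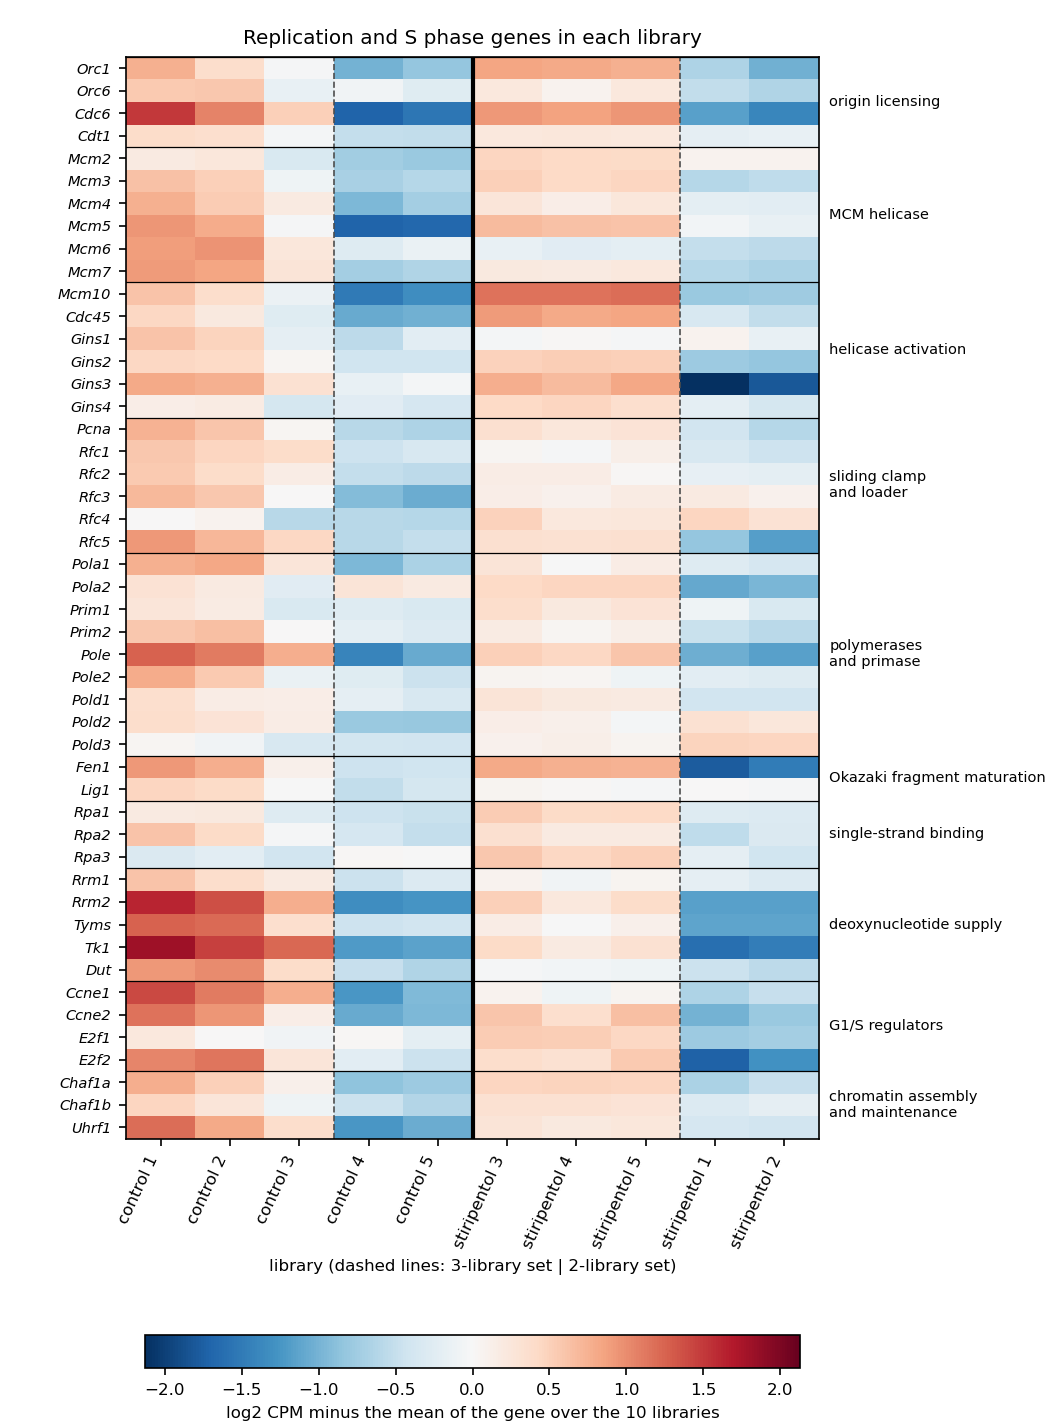
Log2 CPM of each of the 48 genes minus its mean over the 10 libraries (colour), with libraries in columns, control left of the heavy line and stiripentol right of it, and dashed lines between the 3-library and 2-library sets. Most genes are above their mean in controls 1 and 2 and below it in controls 4 and 5, and 33 of the 48 are higher in each library of both 3-library sets than in every library of both 2-library sets.

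Control 3 stood between the others. It was below both controls 1 and 2 for 48 of 48 members, with a median of -0.54 against their mean, while over all genes that median was -0.02. The share of all genes for which it was below both was not counted. It was also above controls 4 and 5 for 41 members. These are the same 41 whose control sets did not overlap (34.1% of all genes), because control 3 was the lowest of its set. Controls 1 and 2, control 3, and controls 4 and 5 thus stood at 3 levels for these 41, whereas the stiripentol libraries of a set lay within 0.44 log2 CPM of each other for every member.

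The level of the replication genes went with general proliferation markers in only some of the libraries. The median deviation of the 48 members from their 10-library means was 0.62, 0.51, 0.05, -0.52 and -0.54 in controls 1 to 5. For 6 proliferation markers (Mki67, Top2a, Ccnb1, Cdk1, Aurka and Plk1, which serve chiefly G2 and mitosis) it was 0.23, 0.18, -0.17, -1.18 and -0.85. Both lists were thus lowest in controls 4 and 5. In stiripentol libraries 1 to 5 the members were at -0.44, -0.49, 0.35, 0.22 and 0.30 and the markers at 0.52, 0.31, 0.46, 0.30 and 0.39. Stiripentol libraries 1 and 2 were therefore low for replication genes and not for the mitotic markers. The median of all genes was also below 0 in these libraries (-0.26 and -0.18), whereas in controls 4 and 5 it was 0.06 in each.

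**Figure D3:**
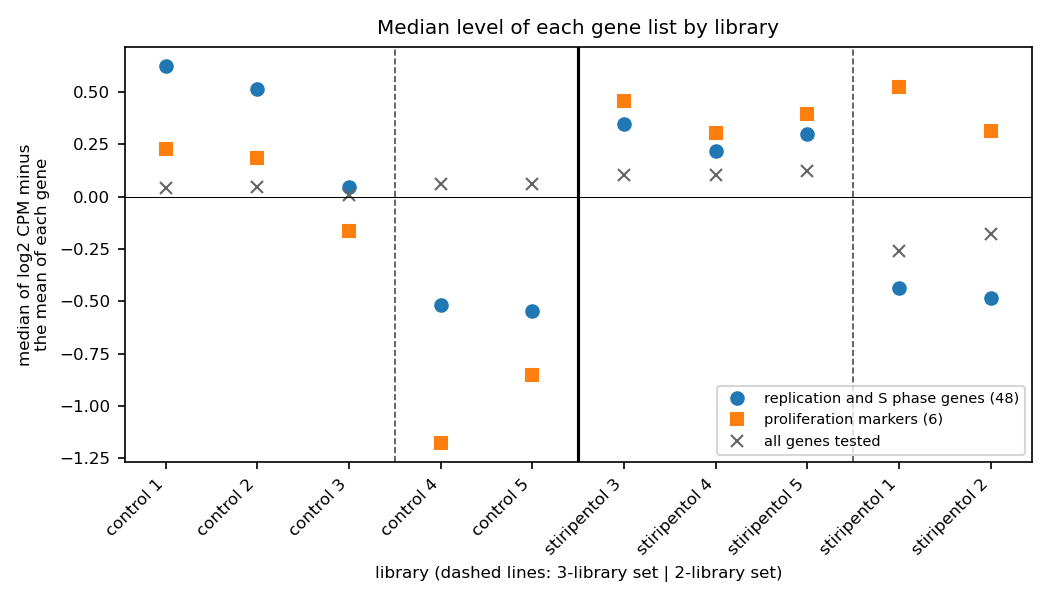
Median deviation from the 10-library mean of each gene, in log2 CPM (vertical axis), for the 48 replication genes, the 6 proliferation markers and all genes tested, in each library (horizontal axis). Replication genes and markers are both low in controls 4 and 5 (-0.52 and -0.54 for the replication genes), whereas in stiripentol libraries 1 and 2 the replication genes are low (-0.44 and -0.49), all genes less so (-0.26 and -0.18), and the markers are not (0.52 and 0.31).

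With the sets joined by size, which is one of the possible matches, the changes with stiripentol within a set pair were of either sign. The sets were found from these same libraries by their likeness, which makes the spread within a set small by that choice. The adjusted p-values for set pairs, here and for single members below, measure changes against that spread. They overstate how sure a rise or fall is. Between the 2-library sets, 15 members rose and 9 fell, where 25.8% of all genes rose and 47.0% fell (limma with 1 mean for each group and set, adjusted p under 0.05). Between the 3-library sets, 9 rose and 15 fell, where 36.9% of all genes rose and 26.5% fell. Called members thus numbered 24 of 48 in each set pair, against 72.8% of all genes between the 2-library sets and 63.4% between the 3-library sets. The median change of the members was 0.11 between the 2-library sets and -0.15 between the 3-library sets, against -0.25 and 0.08 for all genes. The interaction of the change with the set was called for 22 members (63.3% of all genes), and 19 of these had changes of opposite sign in the 2 set pairs (31.7% of all genes). Members called in both set pairs with the same sign numbered 6, namely Mcm2, Mcm10, Cdc45 and Rfc4, which rose, and Rfc5 and Tyms, which fell, where 33.9% of all genes were so called. A further 8 were called in both with opposite signs (13.1% of all genes), and 14 were called in neither (10.9% of all genes).

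**Figure D4:**
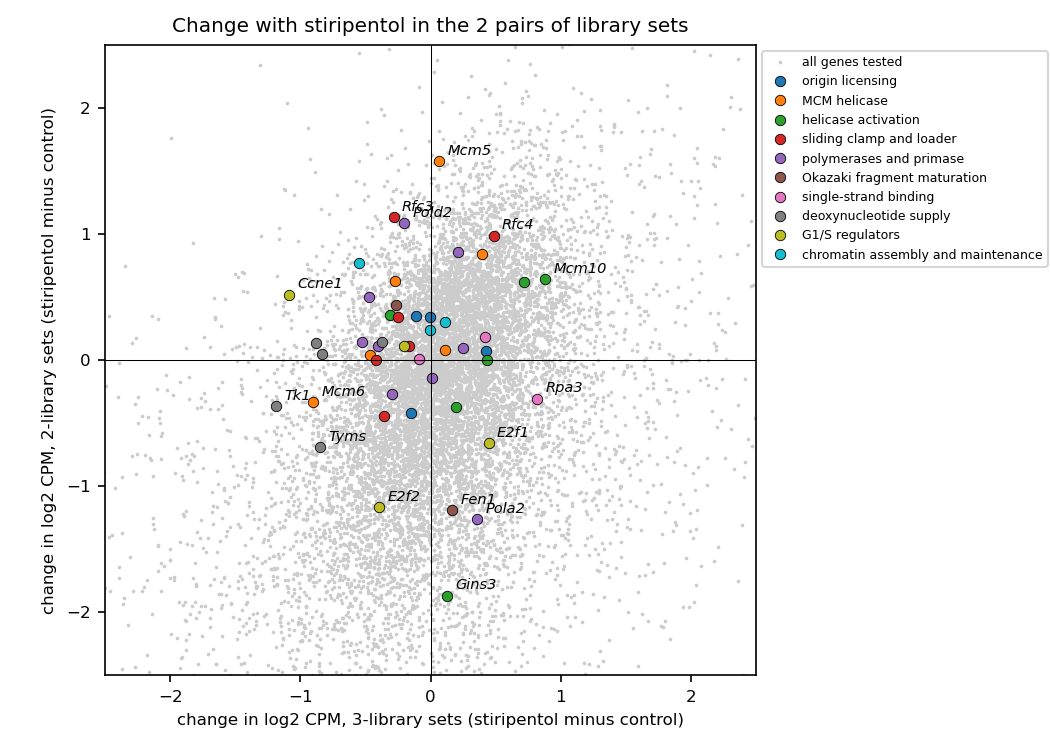
Change in log2 CPM with stiripentol between the 3-library sets (horizontal axis) and between the 2-library sets (vertical axis) for the 48 replication genes, coloured by role, over all genes tested (grey, 731 of which lie beyond the axes at 2.5). Mcm5 (0.07 and 1.58) and Gins3 (0.13 and -1.87) lie far from 0 on the vertical axis only, and Tk1 (-1.19 and -0.36) and Ccne1 (-1.09 and 0.52) far from 0 on the horizontal axis.

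The match of the sets decides the direction for the list. With the sets joined the other way, 36 members were lower and 2 higher in stiripentol libraries 1 and 2 than in controls 1 to 3 (45.2% and 28.1% of all genes). The median was -0.91, against -0.25 for all genes. In stiripentol libraries 3 to 5 against controls 4 and 5, 0 were lower and 47 higher (31.5% and 37.5% of all genes). The median there was 0.88, against 0.05 for all genes. Rfc4 and Pold3 were the 2 members that rose in both of these joins. Mcm2 joined them as the third member whose mean was higher in all 4 combinations of a stiripentol set with a control set (19.8% of all genes), and no member was lower in all 4 (22.5% of all genes).

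Handling the sets in other ways gave other counts. With the library set as a covariate over all 10 libraries, 7 members fell (27.1% of all genes) and 6 rose (23.6% of all genes). Those that fell were Mcm6, Rfc1, Rfc5, Tyms, Tk1, Dut and E2f2, and those that rose were Mcm2, Mcm10, Cdc45, Rfc4, Pold3 and Rpa1. In the 7 libraries of 1 normalization (controls 4 and 5 with all stiripentol libraries), 0 fell (9.87% of all genes) and 12 rose (10.1% of all genes). The median change there was 0.57, against -0.08 for all genes. Rfc4 and Pold3 were among the members that rose in both of these fits.

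The values of single members follow by role. For each role the 2 members with the lowest adjusted p over all 10 libraries are given in every library, and other members given in full were chosen after their values were seen.

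Origin licensing was covered by 4 members, none of which was called over all 10 libraries. Orc6, the smallest subunit of the origin recognition complex (chr8:85299632-85308278), had 5.75, 5.76, 5.03, 5.12 and 4.93 log2 CPM in controls 1 to 5 and 4.67, 4.54, 5.42, 5.27 and 5.41 in stiripentol libraries 1 to 5. Its lowest values were those of stiripentol libraries 1 and 2 and the groups overlapped, with a change of -0.26 (SE 0.24, adjusted p = 0.441). Cdt1, which brings MCM to origins, had 7.02, 6.99, 6.59, 6.12 and 6.10 in control and 6.44, 6.47, 6.86, 6.87 and 6.86 in stiripentol. The control values spanned the whole stiripentol range, and the change was 0.13 (SE 0.21, adjusted p = 0.638). Between the 2-library sets Cdt1 rose by 0.34 (SE 0.12, adjusted p = 0.0253).

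Cdc6, the other loader of MCM, had the largest difference between library sets among the licensing genes. Its values were 5.18, 4.72, 4.18, 1.97 and 2.13 in control and 2.52, 2.28, 4.60, 4.53 and 4.61 in stiripentol. The 3-library set was higher 6.25-fold in control and 4.53-fold in stiripentol, and the change with stiripentol over all libraries was 0.07 (SE 0.75, adjusted p = 0.949). Orc1, the largest subunit of the recognition complex, likewise was 2.44-fold and 3.11-fold higher in the 3-library sets, with a change of 0.29 (SE 0.47).

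The MCM helicase has 6 subunits, none of which was called over all 10 libraries, although Mcm6 and Mcm2 had the lowest adjusted p-values among the uncalled members. Mcm2 (chr6:88883474-88898780) had 7.68, 7.74, 7.17, 6.76 and 6.70 log2 CPM in control and 7.57, 7.58, 7.96, 7.92 and 7.90 in stiripentol. Stiripentol libraries 3 to 5 were the highest of the 10 and controls 4 and 5 the lowest, and the change was 0.58 (SE 0.21, adjusted p = 0.0682). It rose between the 2-library sets (0.84, adjusted p = 0.00038) and between the 3-library sets (0.40, adjusted p = 0.0148). Over the remaining 9 libraries it was also called without control 1 (0.69, adjusted p = 0.0454) and without control 2 (0.71, adjusted p = 0.0374), and over all 10 with quantile normalization (0.62, adjusted p = 0.0413) and with median centring (0.66, adjusted p = 0.0331).

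Mcm6 (chr1:128331590-128359664) went the other way, with 8.45, 8.52, 7.81, 7.29 and 7.42 in control and 7.05, 7.00, 7.41, 7.33 and 7.35 in stiripentol. The 3 highest values were those of controls 1 to 3, and controls 4 and 5 were close to stiripentol libraries 3 to 5. Over all libraries the change was -0.67 (SE 0.24, adjusted p = 0.0589). It fell between the 3-library sets (-0.90, adjusted p = 0.000349), and it was called lower without control 4 (-0.83, adjusted p = 0.0252) or control 5 (-0.79, adjusted p = 0.0391). Mcm2 and Mcm6, whose products stand in 1 ring, thus had changes of opposite sign.

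Of the other subunits, Mcm5 showed the widest range, with 7.58, 7.42, 6.61, 4.92 and 4.96 in control and 6.57, 6.47, 7.31, 7.26 and 7.24 in stiripentol. Controls 4 and 5 stood apart from the other 8 libraries, being 4.80-fold lower than controls 1 to 3. Mcm5 therefore rose 2.99-fold between the 2-library sets (1.58, SE 0.23, adjusted p = 9.52e-05) and had a change of 0.07 between the 3-library sets (adjusted p = 0.777). Mcm4 rose by 0.63 between the 2-library sets (adjusted p = 0.00284) and had -0.28 between the 3-library sets (adjusted p = 0.069). Mcm7 fell between the 3-library sets (-0.47, adjusted p = 0.00985), and Mcm3 was called in neither set pair (0.08 and 0.11).

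Helicase activation was represented by Mcm10, Cdc45 and the 4 GINS subunits, and again none was called over all libraries. Mcm10 (chr2:4989714-5012791) had 5.37, 5.13, 4.64, 3.25 and 3.44 log2 CPM in control and 3.97, 4.01, 5.92, 5.92 and 5.94 in stiripentol. Stiripentol libraries 3 to 5 were the highest of all and the other 2 stiripentol libraries lay inside the control range. The change was 0.79 (SE 0.56, adjusted p = 0.307), and within the sets Mcm10 rose in both, by 0.64 (adjusted p = 0.00794) and 0.88 (adjusted p = 0.000386).

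Cdc45, which joins MCM and GINS in the active helicase, had 4.88, 4.64, 4.18, 3.35 and 3.41 in control and 4.09, 3.90, 5.35, 5.24 and 5.27 in stiripentol. As for Mcm10, stiripentol libraries 3 to 5 were the highest and controls 4 and 5 the lowest, and the groups overlapped. The change was 0.68 over all libraries (SE 0.40, adjusted p = 0.214), 0.62 between the 2-library sets (adjusted p = 0.00925) and 0.72 between the 3-library sets (adjusted p = 0.00136). Cdc45 shares 164 exonic bases with Ufd1 on the other strand, and Ufd1 rose too (0.57, SE 0.10, adjusted p = 0.00235).

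The GINS subunits were called in different set pairs. Gins3 had 3.44, 3.40, 2.96, 2.49 and 2.59 in control and 0.51, 0.83, 3.40, 3.30 and 3.46 in stiripentol. Only stiripentol libraries 1 and 2 stood apart, 6.59-fold below the other stiripentol libraries. Gins3 fell between the 2-library sets (-1.87, SE 0.18, adjusted p = 3.45e-06), the lowest change of any member there, and had 0.13 between the 3-library sets (adjusted p = 0.472). Gins2 fell between the 2-library sets as well (-0.37, adjusted p = 0.0177), Gins4 rose between the 3-library sets (0.44, adjusted p = 0.0124), and Gins1 was called in neither (0.35 and -0.31). Gins2 shares up to 2758 exonic bases with Gse1 on the other strand, and Gse1 had -1.49 between the 2-library sets.

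The sliding clamp and its loader held Rfc4, the member with the lowest adjusted p. Rfc4 (chr16:23113943-23127737, minus strand) had 4.49, 4.56, 3.89, 3.89 and 3.87 log2 CPM in control and 4.94, 4.80, 4.98, 4.70 and 4.72 in stiripentol. Every stiripentol library was above every control, and the library sets of the stiripentol group were not apart. Rfc4 rose by 0.69 (1.61-fold, SE 0.18, adjusted p = 0.0166), and it was called on leaving out any 1 of the 10 libraries (adjusted p 0.0123 to 0.042). Within the sets it rose by 0.99 (adjusted p = 0.000693) and 0.49 (adjusted p = 0.0183). Exons of Rfc4 and of Eif4a2, a translation factor on the other strand, share 186 bases, with 13334 reads for Rfc4 and 199666 for Eif4a2 over the 10 libraries. Eif4a2 changed by 0.19 (SE 0.30, adjusted p = 0.660), with 0.44 between the 3-library sets and -0.19 between the 2-library sets. Whether reads were counted by strand is not given in the sources used here, so reads of the pair cannot be told apart in the shared bases.

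The other loader subunits differed from Rfc4. Rfc1, the large subunit (chr5:65261850-65335670), had 7.35, 7.25, 7.17, 6.35 and 6.45 in control and 6.45, 6.35, 6.83, 6.77 and 6.91 in stiripentol. Controls 1 to 3 were above all stiripentol libraries and controls 4 and 5 were level with stiripentol libraries 1 and 2. The change was -0.25 (SE 0.22, adjusted p = 0.402), with a fall of 0.42 on the log2 scale between the 3-library sets (adjusted p = 0.000466). Rfc3 had 5.69, 5.58, 5.02, 4.08 and 3.95 in control, and all stiripentol libraries lay at 5.10 to 5.19.

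Rfc3 therefore rose between the 2-library sets (1.14, adjusted p = 0.000134) and not between the 3-library sets (-0.28, adjusted p = 0.107). Rfc2 rose by 0.34 between the 2-library sets (adjusted p = 0.0246) and fell between the 3-library sets (-0.25, adjusted p = 0.0421). Rfc5 fell in both set pairs (-0.45 and -0.36, adjusted p = 0.0185 and 0.0244), with -0.39 over all libraries (adjusted p = 0.481). Pcna, the clamp itself, was called in neither set pair (0.11 and -0.16) and had -0.05 over all libraries (SE 0.31), while its 3-library sets were 2.11-fold and 1.75-fold higher.

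Among the 9 polymerase and primase genes, Pold3 alone was called over all 10 libraries. Pold3 (chr7:100082111-100121565, minus strand) had 4.86, 4.74, 4.48, 4.43 and 4.42 log2 CPM in control and 5.29, 5.27, 4.91, 4.94 and 4.87 in stiripentol. All stiripentol values were above all control values, by as little as 4.87 against 4.86, and stiripentol libraries 1 and 2 were the highest. Pold3 rose by 0.47 (1.39-fold, SE 0.15, adjusted p = 0.0364), by 0.86 between the 2-library sets (adjusted p = 5.09e-05), and the change was 0.21 between the 3-library sets (adjusted p = 0.0723). The call was lost without any 1 of controls 2 to 5 or of stiripentol libraries 1, 2 and 4, where the change was 0.41 to 0.51 and the adjusted p 0.0512 to 0.0871. It was also lost with quantile normalization (0.54, adjusted p = 0.0549) and with median centring (0.55, adjusted p = 0.0561).

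Pold2, another accessory subunit of polymerase delta (chr11:5872180-5878292), had 6.76, 6.66, 6.54, 5.58 and 5.56 in control and 6.71, 6.62, 6.52, 6.49 and 6.34 in stiripentol. Only controls 4 and 5 were apart from the rest. The change was 0.31 (SE 0.25, adjusted p = 0.354), with a rise of 1.09 between the 2-library sets (adjusted p = 1.65e-06) and a fall between the 3-library sets (-0.20, adjusted p = 0.0413). Pold1, the catalytic subunit, had -0.05 over all libraries (SE 0.20) and was called in neither set pair.

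The 2 subunits of the polymerase alpha part of the primase complex behaved differently from each other within the sets. Pola1, the catalytic subunit, rose by 0.50 between the 2-library sets (adjusted p = 0.0231) and fell between the 3-library sets (-0.47, adjusted p = 0.0134). Pola2 had 5.80, 5.68, 5.25, 5.77 and 5.68 in control and 4.40, 4.52, 5.92, 5.94 and 5.95 in stiripentol. Its values overlapped between the control sets and were low only in stiripentol libraries 1 and 2, so that it fell between the 2-library sets (-1.26, adjusted p = 1.48e-05) and rose between the 3-library sets (0.36, adjusted p = 0.0221). The primase genes Prim1 and Prim2 and Pole2, a subunit of polymerase epsilon, were called in neither set pair. Pole, the catalytic subunit of the leading-strand polymerase, was 4.87-fold and 3.05-fold higher in the 3-library sets and fell between those (-0.53, adjusted p = 0.00367).

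Okazaki fragments are trimmed by the nuclease Fen1 and joined by the ligase Lig1. Fen1 (chr19:10199132-10204169) had 6.06, 5.91, 5.23, 4.69 and 4.70 log2 CPM in control and 3.36, 3.64, 5.93, 5.89 and 5.88 in stiripentol. Stiripentol libraries 1 and 2 were the lowest of all 10 and 5.27-fold below the other stiripentol libraries, while the change over all was -0.38 (SE 0.57, adjusted p = 0.637). Fen1 fell between the 2-library sets (-1.19, adjusted p = 0.000365) and had 0.16 between the 3-library sets (adjusted p = 0.424).

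Lig1 had 6.89, 6.83, 6.41, 5.89 and 6.05 in control and 6.43, 6.39, 6.48, 6.44 and 6.40 in stiripentol. The stiripentol values were the closest together of any member (SD 0.04) and lay inside the control range, with a change of 0.02 (SE 0.19, adjusted p = 0.956). Between the 2-library sets Lig1 rose (0.44, adjusted p = 0.0129).

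The single-strand binding complex RPA has 3 subunits, and none was called over all libraries. Rpa1, the large subunit (chr11:75298166-75348324), had 7.59, 7.59, 7.12, 6.95 and 6.91 log2 CPM in control and 7.12, 7.10, 7.94, 7.80 and 7.81 in stiripentol. Stiripentol libraries 3 to 5 were above all controls and the other 2 were inside the control range, with a change of 0.32 (SE 0.22, adjusted p = 0.276) and a rise of 0.42 between the 3-library sets (adjusted p = 0.00776).

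Rpa3, the small subunit, was the one member whose controls 4 and 5 were above controls 1 to 3. It had 4.13, 4.22, 4.03, 4.45 and 4.42 in control and 4.24, 4.02, 5.02, 4.87 and 4.95 in stiripentol. Its change was 0.37 (SE 0.22, adjusted p = 0.214), with a rise of 0.82 between the 3-library sets (adjusted p = 1.76e-05) and a fall between the 2-library sets (-0.31, adjusted p = 0.0255). With quantile normalization it was called higher over all libraries (0.50, adjusted p = 0.0237). Rpa2 had -0.05 (SE 0.26) and was called in neither set pair.

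**Figure D5:**
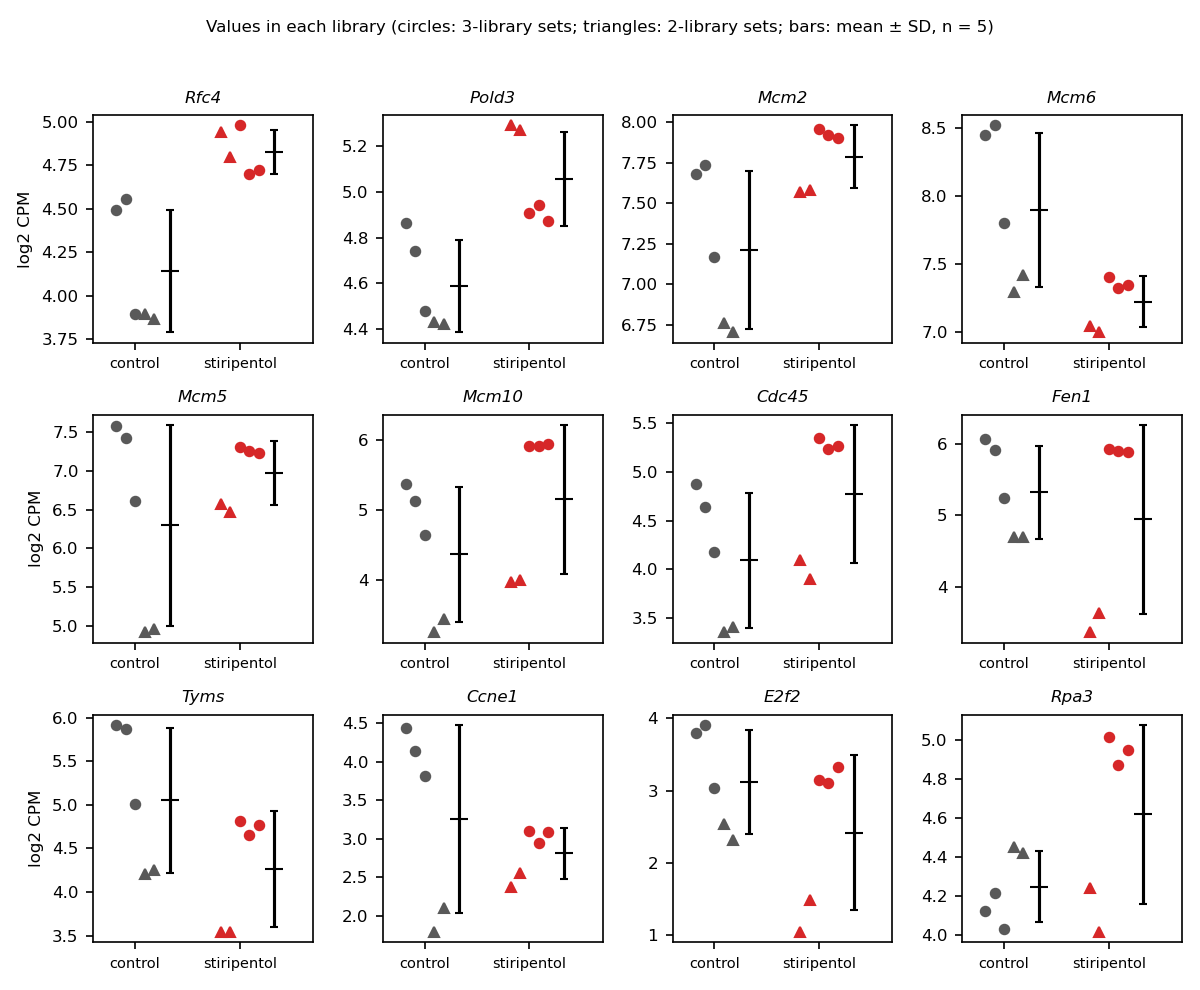
Log2 CPM of 12 members (vertical axis) in each control (grey) and stiripentol (red) library, with circles for the 3-library sets, triangles for the 2-library sets and bars for mean ± SD (n = 5). Only Rfc4 and Pold3 have all stiripentol points above all control points, and Mcm5, Mcm10, Fen1 and E2f2 show the distance between circles and triangles of one group.

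Deoxynucleotide supply was the role with a single sign over all libraries, since each of its 5 genes had a change below 0, from -0.86 to -0.17, although 0 were called and all 5 were above 0 in the 7 libraries of 1 normalization. Of all 12306 genes tested, 6596 had a change below 0 over all libraries. Tyms, thymidylate synthase (chr5:30058202-30073617), had 5.92, 5.87, 5.01, 4.21 and 4.25 log2 CPM in control and 3.54, 3.54, 4.81, 4.66 and 4.77 in stiripentol. Controls 1 to 3 were above all stiripentol libraries, and stiripentol libraries 1 and 2 were below all controls. The change was -0.79 (SE 0.42, adjusted p = 0.179), with falls in both set pairs (-0.69 and -0.85, adjusted p = 0.0204 and 0.00258). Dut, which removes dUTP, had 7.32, 7.41, 6.78, 5.91 and 5.76 in control and 5.93, 5.83, 6.37, 6.33 and 6.30 in stiripentol. It was highest in controls 1 to 3, while controls 4 and 5 were level with stiripentol libraries 1 and 2. The change was -0.48 (SE 0.32, adjusted p = 0.276), and it fell between the 3-library sets (-0.83, adjusted p = 0.000308).

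All 5 genes of this role fell between the 3-library sets, where 26.5% of all genes did, and Tyms alone between the 2-library sets. Tk1, thymidine kinase of the salvage route, had the largest distances, with 6.66, 6.31, 6.07, 3.64 and 3.70 in control and 3.25, 3.37, 5.26, 5.05 and 5.17 in stiripentol. The 3-library set was 6.38-fold higher in control and 3.60-fold higher in stiripentol, and Tk1 fell between the 3-library sets (-1.19, adjusted p = 1.74e-05). The ribonucleotide reductase subunits Rrm1 and Rrm2 fell there too (-0.37 and -0.88, adjusted p = 0.00706 and 0.00106), and between the 2-library sets they had 0.14 and 0.13 (adjusted p = 0.318 and 0.585). In stiripentol libraries 3 to 5 against controls 4 and 5, in contrast, each of the 5 was higher, by 0.39 to 1.67 on the log2 scale. That was not particular to this role, since the means of all 48 members were higher there.

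The G1/S regulators were the 2 cyclin E genes and 2 activating E2F factors. Ccne1 (chr7:38097984-38107534) had 4.44, 4.14, 3.81, 1.79 and 2.10 log2 CPM in control and 2.37, 2.55, 3.10, 2.95 and 3.09 in stiripentol. The stiripentol values lay between the 2 control sets. The change was -0.44 (SE 0.51, adjusted p = 0.524), with a rise of 0.52 between the 2-library sets (adjusted p = 0.0289) and a fall between the 3-library sets (-1.09, adjusted p = 0.000122). E2f2 had 3.80, 3.91, 3.04, 2.55 and 2.32 in control and 1.05, 1.48, 3.14, 3.10 and 3.33 in stiripentol. Stiripentol libraries 1 and 2 were the lowest of all, and the change was -0.70 (SE 0.51, adjusted p = 0.318), with a fall between the 2-library sets (-1.17, adjusted p = 0.00175).

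E2f1 was level over the controls, at 5.42, 5.21, 5.13, 5.23 and 4.99, and split over the stiripentol libraries, at 4.42, 4.47, 5.75, 5.72 and 5.64. The 5 controls lay between the 2 stiripentol sets, and the change was 0.00 (SE 0.29, adjusted p = 0.993). E2f1 fell between the 2-library sets (-0.66, adjusted p = 0.000333) and rose between the 3-library sets (0.45, adjusted p = 0.00171). Ccne2 was called in neither set pair and was 3.36-fold and 2.71-fold higher in the 3-library sets.

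Chromatin assembly was represented by the CAF-1 subunits Chaf1a and Chaf1b and by Uhrf1, which keeps DNA methylation on the new strand. Chaf1a (chr17:56040439-56072289) had 7.17, 6.90, 6.50, 5.52 and 5.62 log2 CPM in control and 5.71, 5.90, 6.84, 6.87 and 6.84 in stiripentol. Chaf1b had 5.67, 5.47, 5.11, 4.75 and 4.59 in control and 4.92, 5.02, 5.54, 5.54 and 5.50 in stiripentol. Both were low in controls 4 and 5 and in stiripentol libraries 1 and 2, and the groups overlapped. Their changes were 0.09 (SE 0.37, adjusted p = 0.87) and 0.19 (SE 0.23, adjusted p = 0.561), and neither was called in a set pair. Uhrf1 had -0.02 over all libraries (SE 0.45), rose between the 2-library sets (0.77, adjusted p = 0.00386) and fell between the 3-library sets (-0.55, adjusted p = 0.00998).

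The difference between the control sets was also read against the E2F letters of the promoters. In control, the median difference between the sets was 1.08 for the 16 members with a promoter word, 0.95 for the 24 without one and 0.82 for the 8 without an entry. In stiripentol the order was the other way, with 0.63 for those with a word, 0.78 for those without one and 0.67 for those without an entry. Between the control sets Cdc6, Mcm5 and Uhrf1, shown above, had 2.64, 2.26 and 1.94, whereas Mcm6, with words in both stretches, had 0.90. Tk1 and Rrm2, with 2.67 and 2.55, had no such word in these windows.

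Other genes of the pathway, together with the 6 proliferation markers, were read beside the members from lists of 69 genes, all of which passed the filter. Over all 10 libraries 5 fell and 7 rose, shares below the 14.1% and 13.6% of all genes. Of 15 other origin and helicase genes, 3 rose and 1 fell, among them Mcm8 (1.80, adjusted p = 0.0026) and Orc4 (0.56, adjusted p = 0.00465), which rose, and Donson (-1.52, adjusted p = 0.0208), which fell. Mcm8 belongs to a recombination helicase, and Orc4 is a core subunit of the recognition complex. Of 16 other fork genes, the nuclease Dna2 fell (-1.05, adjusted p = 0.0148) and the polymerase epsilon subunit Pole3 rose (0.71, adjusted p = 0.0293). Of 8 other chromatin replication genes, the histone chaperone Asf1a rose (0.47, adjusted p = 0.0422). Of 16 other G1/S regulators, Cdk2, the kinase partner of cyclin E, fell (-0.50, adjusted p = 0.0289). Of 8 other deoxynucleotide genes, Samhd1, which degrades deoxynucleotides, fell (-0.83, adjusted p = 0.00371) and so did Shmt1 (-0.75, adjusted p = 0.0424), which feeds folate to thymidylate synthesis. Of the 6 proliferation markers, Aurka (1.05, adjusted p = 0.01) and Mki67 (0.93, adjusted p = 0.0331) rose.

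The 69 genes were also compared between library sets. Their 3-library set was higher for 59 of 69 in control, with a median of 0.84, and for 55 of 69 in stiripentol, with a median of 0.53, against 48.8% and 66.1% of all genes with medians of -0.02 and 0.32. The 6 proliferation markers among them were higher for 6 of 6 in control and for 3 of 6 in stiripentol. The groups did not overlap for 6 of the 69 with stiripentol higher (13.0% of all genes) and for 5 with stiripentol lower (14.3% of all genes). The median change of the 69 was -0.04.

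Overlapping genes limit a few of the single values. Exons of 15 of the 48 members overlap exons of another gene, most on the other strand, among them Orc6 with Vps35, Chaf1a with Ubxn6, Mcm7 with Ap4m1 and Cops6, Tk1 with Afmid and Lig1 with Zswim9. Vps35 rose (0.50, SE 0.11, adjusted p = 0.00706) while Orc6 had -0.26. The processed copy Pcna-ps2 held 1399 reads over the 10 libraries against 132317 for Pcna, and Tyms-ps held 0 against 16968 for Tyms.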

How the data were processed

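RNA of 5 control and 5 stiripentol libraries of mSCLC-2405 cells was analysed from 1 table. The authors deposited read counts as log2 CPM, 1 column for each library, and columns of their own comparison (group means, a p-value, a q-value, a ratio, a difference and its log2), which were not used. Per the labels, libraries were TruSeq total RNA, whereas the methods name a 3′ kit. The submitters' processing notes name mm10, and the aligner, annotation and strand setting are not given in the sources used here. The 10 columns were matched to samples by name. Whole reads were recovered from 100% of values (tolerance 0.05), and depth limits counting error only.

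The deposited log2 values were tested with limma 3.58.1 in R 4.3.3 (mean-variance trend, no covariate, two-sided, Benjamini-Hochberg adjustment across 12306 genes, those whose mean log2 CPM exceeded 0). Calls were made at an adjusted p under 0.05. Library sets were found by average-linkage clustering over all genes within each group. Within-set changes came from a limma fit with 1 mean per group and set. Its p-values, and those with the set as a covariate, rest on the spread within sets found from the same data. Python 3.11.15, numpy 2.4.6, pandas 2.3.3, scipy 1.17.1 and matplotlib 3.10.9 were used, and the fits were tested on simulated data. For the fit over all 10 libraries those data held no difference between library sets, so it was not tested under the spread seen here. No library was a copy of another (chi-square per gene within a set at least 8.39, where sampling gives about 1).

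The members and lists were chosen with earlier results of these data known. Named members were the 2 with the lowest adjusted p in each of 10 roles, and of other pathway genes at most 3 called per list. Gene positions are GENCODE M21 (GRCm38) and promoters RefSeq. Alternatives were each library left out, a replicate block, the library set as a term or alone, quantile normalization, median centring, no filter or a stricter one, a pseudocount of 1 or 0.1 CPM, voom and other variance models.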

Additional observations from a re-analysis of the deposited data

Results flagged for a closer look

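The change with stiripentol differed between the 2 set pairs, by the interaction term of limma at an adjusted p under 0.05, for 22 of the 48 replication genes, where 63.3% of all genes tested did so. The largest interactions were those of Gins3 (-2.00, adjusted p = 2.83e-05), Pola2 (-1.63, adjusted p = 2.88e-05), Ccne1 (1.60, adjusted p = 0.000196) and Mcm5 (1.51, adjusted p = 0.00119), given as the change between the 2-library sets minus that between the 3-library sets. The match of the sets by size is not in the labels, and the library sets and any batch behind them cannot be told apart. The p-values of the interaction rest on the spread within sets found from these same libraries, which is small by that choice. In a search for single libraries far from the other 4 of their group, 0 of 42 groups of 5 values had one. Chance alone would give about 2.1 for independent groups without library sets, but these groups share the same 10 libraries. Libraries of a set also lie together and hide each other in such a search, so it does not show that no library stood apart.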

How the results depend on the processing

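Over all 10 libraries 2 members were higher and 0 lower, with a median change of -0.04. Leaving out each library in turn gave 1 to 3 higher, 0 to 1 lower and medians of -0.17 to 0.11. Of all genes, 1218 to 1706 were then higher and 1171 to 1802 lower. Other filters, pseudocounts, variance models and voom kept 2 higher (Rfc4 and Pold3) and 0 lower. Quantile normalization gave 3 and 0 (Rfc4, Mcm2 and Rpa3) and median centring 2 and 0 (Rfc4 and Mcm2), so that Pold3 was lost and Mcm2 gained under both. Of all genes, quantile normalization called 2085 higher and 1793 lower, and median centring 1804 and 1797. Quantile normalization moved the median of all genes from -0.06 to 0.05, and that of the members to 0.08. The deviations of samples with the same number in the 2 groups had correlations of -0.24 to 0.06. The library sets fall on different numbers in the 2 groups and enter these correlations, so they cannot decide whether the numbers pair the samples. A replicate block left 2 higher (Rfc4, adjusted p = 0.042, and Pold3, adjusted p = 0.0405) and 0 lower. Over all genes the block took the calls from 1740 lower and 1674 higher to 1062 and 1020. With the library set as a covariate 7 were lower and 6 higher, between the 2-library sets alone 9 and 15, between the 3-library sets alone 15 and 9, and the cause was not tested. With a minimum log2 change of 1, 0 were higher, because no called member changed that much. Of all genes, 404 were higher and 890 lower by that rule. The remaining alternatives were chosen after seeing the data. With 1 mean per group and set, from 4 means, 0 members and 0 of all 12306 genes were called. That setting therefore says nothing particular to the members (0 members at an unadjusted p under 0.05). The 3-library control set against the 2-library stiripentol set gave 36 lower and a median of -0.91 (-0.25 for all genes). The 2-library control set against the 3-library stiripentol set gave 47 higher and a median of 0.88 (0.05 for all genes). The 7 libraries of 1 normalization only gave 12 higher and a median of 0.57 (-0.08 for all genes). Among the named genes, Rpa3 reversed between the 2-library sets (-0.31), Ccne1 between the 2-library sets (0.52) and Pold2 between the 3-library sets (-0.20). Control 5, with 22375625 reads, had the least depth, and the lowest read numbers of any members in a library were 83 (Orc1), 84 (Gins3), 95 (Ccne1) and 97 (Cdc6).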
